A study of Mus musculus with 9 samples.

Results

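Of the 9 lymphomas in the series, 7 carried a B-cell receptor light chain led by 1 of 2 kappa variable genes, and these 7 are compared here: 3 Igkv3-4-led tumors against 4 Igkv5-39-led tumors. The groups were chosen by the readout itself, namely the Igkv gene with the most raw counts in each tumor, so the Igkv values below are a description with no test, and the same holds for the heavy chain genes that had been linked to them in these tumors. The Igkv3-4-led tumors were Bcl6 tumors 1 and 2 and Smc3/Bcl6 tumor 3. The Igkv5-39-led tumors were Bcl6 tumor 3 and Smc3/Bcl6 tumors 1, 5 and 6. Values of single tumors are given below in these 2 orders. The other 2 tumors, Smc3/Bcl6 tumors 2 and 4, were led by Igkv4-50 and Igkv6-15 and were left out.

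All tumors came from mice that carried IµBcl6, a Bcl6 transgene inserted at the Ighm locus that keeps this germinal center repressor expressed in B cells, and Cγ1-Cre, a recombinase driven from the Ighg1 locus, which becomes active during the germinal center reaction. Bcl6 tumors were Smc3 wt/wt, and Smc3/Bcl6 tumors were Smc3 wt/-, with 1 allele of this cohesin subunit deleted. Genotype was unequal between the groups, with 2 Bcl6 and 1 Smc3/Bcl6 tumors among the Igkv3-4-led and 1 Bcl6 and 3 Smc3/Bcl6 among the Igkv5-39-led tumors. RNA of lymph node lymphomas was sequenced, 1 library per tumor. The tissue label was mesenteric lymph node for Bcl6 tumor 1 and Smc3/Bcl6 tumor 1, 1 in each kappa group, and lymph node for the rest. The study's text, in contrast, names the mesenteric node for both genotypes. No age and no sorting of tumor cells is given. The total count per tumor ranged from 10156728 to 17774577.

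A B cell assembles its receptor by joining 1 variable (V) gene to a joining (J) segment in the kappa or lambda light chain locus, and V, D and J segments in the heavy chain locus. Descendants of 1 cell keep the same rearrangement, so that a clonal lymphoma shows a few V genes, whereas a mixed B-cell population shows many. Most mouse B cells use kappa, and the constant gene that follows (Ighm, the Ighg genes, Ighe or Igha) sets the antibody class.

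The 4 V genes that mark the groups are given here by the 3′ end of their germline segment in the GENCODE M21 transcripts (GRCm38), since these hold the region by which V genes differ most. Capitals mark the germline bases that follow the conserved cysteine codon, found by the motif TATTACTGT on the coding strand. The junction begins there, to the J segment in kappa and to the D segment in the heavy chain. The same motif was present in 105 of the 218 V segments with such a window (48.2%). The printed window of Igkv3-4 is chr6:70672093-70672377, plus strand, and that of Igkv5-39 is chr6:69900424-69900708, minus strand, within the kappa locus. The window of Ighv1-64 is chr12:115507545-115507829, minus strand, and that of Ighv3-1 is chr12:113964388-113964672, minus strand, within the heavy chain locus. The tumors' own rearranged or mutated sequences were not analysed here.
Igkv3-4: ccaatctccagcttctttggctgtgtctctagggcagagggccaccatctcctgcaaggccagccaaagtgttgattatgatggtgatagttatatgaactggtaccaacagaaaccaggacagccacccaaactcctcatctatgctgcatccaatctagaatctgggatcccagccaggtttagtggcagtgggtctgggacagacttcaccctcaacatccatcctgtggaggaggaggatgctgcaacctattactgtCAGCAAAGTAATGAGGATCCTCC
Igkv5-39: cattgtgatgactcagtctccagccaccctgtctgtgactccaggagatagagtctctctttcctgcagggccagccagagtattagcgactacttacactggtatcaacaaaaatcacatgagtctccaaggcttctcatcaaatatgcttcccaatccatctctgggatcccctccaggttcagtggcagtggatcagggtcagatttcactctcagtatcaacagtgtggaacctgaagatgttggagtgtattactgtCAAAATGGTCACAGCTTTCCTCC
Ighv1-64: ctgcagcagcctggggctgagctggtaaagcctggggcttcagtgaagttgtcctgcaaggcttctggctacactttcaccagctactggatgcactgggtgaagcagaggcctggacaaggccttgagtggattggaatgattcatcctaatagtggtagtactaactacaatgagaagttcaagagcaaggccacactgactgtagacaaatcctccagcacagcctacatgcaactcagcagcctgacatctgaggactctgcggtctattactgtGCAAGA
Ighv3-1: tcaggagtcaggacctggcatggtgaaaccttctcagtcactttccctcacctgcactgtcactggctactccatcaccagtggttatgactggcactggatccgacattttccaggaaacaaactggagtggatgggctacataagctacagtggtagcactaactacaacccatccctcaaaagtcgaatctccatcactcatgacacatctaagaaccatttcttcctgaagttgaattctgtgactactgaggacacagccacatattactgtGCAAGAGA
Over these bases Igkv3-4 and Igkv5-39 were 65.6% identical. The nearest other segment was Igkv3-3 for Igkv3-4, with 93.3% identity, and Igkv5-45 for Igkv5-39, with 91.6%. Ighv1-64 had 3 other segments at 95% identity or more, so that its reads could have been split with them, and Ighv3-1 was at most 91.6% identical to another segment (Ighv3-6).

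The kappa groups were far apart in the measure that chose them. Igkv3-4 held 77.5, 72.1 and 68.4% of all Igkv counts in the Igkv3-4-led tumors, and 0.122, 0.00971, 0.142 and 8.36% in the Igkv5-39-led tumors. Igkv5-39 held 91.6, 87.9, 98.2 and 61.4% in the tumors it led and 0.344, 0.302 and 0.799% in the others. The lowest leading share was that of Smc3/Bcl6 tumor 6, at 61.4% (95% Wilson interval 61.0 to 61.7%, which covers counting error only), and this tumor also had 19.7% Igkv8-27. Outside both groups, Igkv4-50 held 62.8% in Smc3/Bcl6 tumor 2, with 34.0% Igkv4-57, and Igkv6-15 held 25.3% in Smc3/Bcl6 tumor 4. The effective number of Igkv genes (the inverse of the summed squared shares) was 1.66, 1.89 and 2.12 in the Igkv3-4-led tumors and 1.19, 1.28, 1.04 and 2.37 in the Igkv5-39-led tumors.

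**Figure D1:**
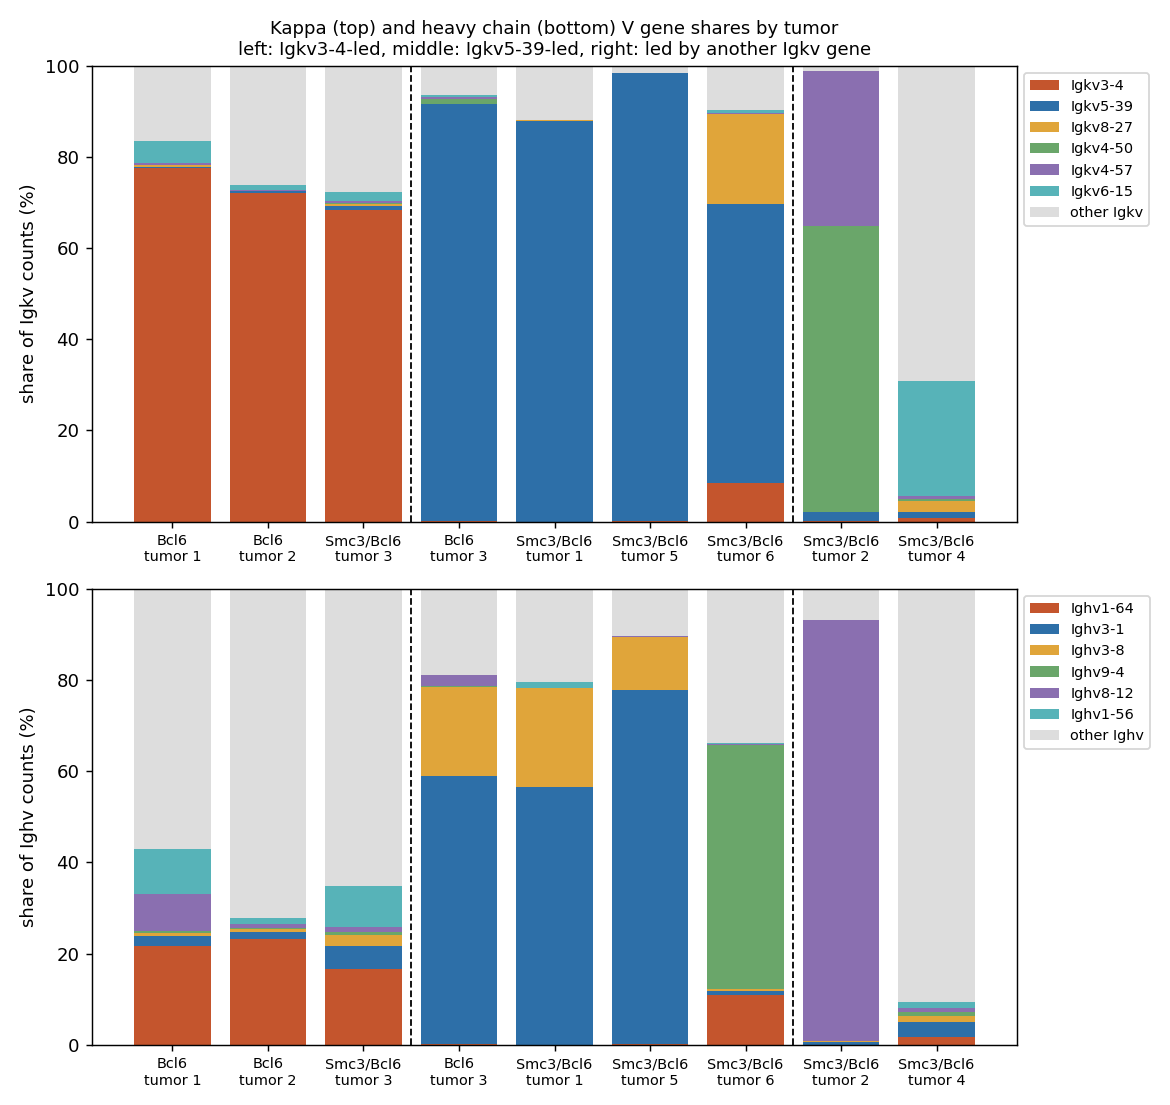
Share of Igkv counts (top, %) and of Ighv counts (bottom, %) held by 6 named genes each in the 9 tumors, 1 bar per tumor, with all other genes of the family in grey. Igkv3-4 or Igkv5-39 fills 61.4 to 98.2% of the kappa bars of the 7 tumors compared, whereas Ighv1-64 fills at most 23.1% of a heavy chain bar and Ighv3-1 is nearly absent from Smc3/Bcl6 tumor 6.

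The heavy chain followed the kappa group in 6 of the 7 tumors. Ighv1-64 was the leading Ighv gene in each Igkv3-4-led tumor, but with only 21.6, 23.1 and 16.7% of Ighv counts. Its nearest followers there were Ighv1-56 in Bcl6 tumor 1 (9.96%) and in Smc3/Bcl6 tumor 3 (8.94%), and Ighv1-66 in Bcl6 tumor 2 (20.2%). The effective number of Ighv genes was 12.8, 9.21 and 18.1, against 1.66, 1.89 and 2.12 for the kappa genes of the same tumors.

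Ighv3-1 led in 3 of the 4 Igkv5-39-led tumors, with 58.8, 56.5 and 77.6% of Ighv counts. Ighv3-8 came second in the same 3 tumors, with 19.7, 21.8 and 11.8%, and its segment was 74.0% identical to that of Ighv3-1. Smc3/Bcl6 tumor 6 went against this pattern. Its leading heavy chain gene was Ighv9-4 with 53.5%, followed by Ighv1-64 with 10.8%, and Ighv3-1 held 0.948%. Results that rest on this tumor are given below also without it.

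The minor signal in Smc3/Bcl6 tumor 6 resembled the Igkv3-4-led tumors in its genes but not in its proportions. Igkv3-4 had 5520 counts and Ighv1-64 had 2763 there, a ratio of 2.00, whereas this ratio was 18.1, 23.96 and 18.8 in the Igkv3-4-led tumors. In the other Igkv5-39-led tumors, Igkv3-4 had 27, 7 and 66 counts and Ighv1-64 had 7, 10 and 8.

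The J segments, which the rule did not use, divided the Igkv5-39-led tumors further. Ighj3 held 85.1% of Ighj counts in Bcl6 tumor 3 and 79.8% in Smc3/Bcl6 tumor 1, while Ighj2 led in Smc3/Bcl6 tumor 5 with 77.1% and Ighj1 in Smc3/Bcl6 tumor 6 with 70.7%. Igkj1 led in Bcl6 tumor 3 (63.5%) and in Smc3/Bcl6 tumors 1 (71.9%) and 6 (45.4%), and Igkj5 in Smc3/Bcl6 tumor 5 (67.6%). In the Igkv3-4-led tumors no Ighj segment exceeded 38.7% and no Igkj segment 38.8%, and the effective number of Ighj segments was 3.68, 3.39 and 3.56.

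Overlap of V gene use (the summed smaller share of each gene in a pair of tumors) was 84.4 to 86.2% for Igkv and 56.8 to 77.5% for Ighv among the Igkv3-4-led tumors. Among the Igkv5-39-led tumors it was 62.6 to 92.6% for Igkv and 5.58 to 88.4% for Ighv. Between the groups it was at most 19.2% for Igkv and 35.2% for Ighv. Bcl6 tumor 3 and Smc3/Bcl6 tumor 1, of unlike Smc3 genotype, overlapped by 92.0% in Igkv, 88.4% in Ighv, 91.6% in Igkj and 91.0% in Ighj. Smc3/Bcl6 tumor 5 overlapped with these 2 tumors by 92.6 and 88.7% in Igkv but by only 15.1 and 22.0% in Ighj.

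Lambda genes were present in every tumor. Iglv1 was the lambda variable gene with most counts in all 7, with 52.1 to 95.9% of Iglv counts, and Iglv2 or Iglv3 was second. The lambda constant gene Iglc2 made up 11.1, 10.99 and 14.4% of light chain constant counts (Igkc plus Iglc2) in the Igkv3-4-led tumors and 19.0, 17.4, 20.6 and 12.8% in the Igkv5-39-led tumors, so that the ranges overlapped through Smc3/Bcl6 tumor 6 alone. Iglc1 and Iglc3 matched no name, so this share covers Iglc2 only and is not the share of lambda. The Iglv genes together held 0.0710, 0.0807 and 0.0307% of all counts in the Igkv3-4-led tumors. In the Igkv5-39-led tumors they held 0.00875, 0.125, 0.00760 and 0.133%, which includes both the lowest and the highest values.

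Ighm, the constant gene of IgM, dominated the heavy chain in both groups, with 96.2, 89.3 and 96.0% of heavy chain constant counts in the Igkv3-4-led tumors and 88.7, 88.7, 90.0 and 93.6% in the Igkv5-39-led tumors. Igha came next in Bcl6 tumor 3 and Smc3/Bcl6 tumor 1 (7.17 and 6.77%), the pair with like V and J use, whereas Ighg2c came next in Smc3/Bcl6 tumor 5 (6.08%). Igha also came next in Bcl6 tumor 2, an Igkv3-4-led tumor, with 2.98%, close to Ighg2c with 2.93%. The IµBcl6 insertion lies in the Ighm locus and Cre in the Ighg1 locus, and their part in these counts was not tested.

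The constant genes, whose levels the rule did not use, gave no call in the edgeR test across genes. That test compared 13530 genes between the 7 tumors, without V, D and J segments, with edgeR's quasi-likelihood test, and 0 genes were called higher (0%) and 0 lower in Igkv3-4-led tumors at an adjusted p below 0.05 (smallest adjusted p = 0.483). At an unadjusted p below 0.05 there were 500 genes higher (3.70% of those tested) and 718 lower (5.31%). With other tools, limma's voom test also gave 0 calls in either direction, with 578 and 663 genes at an unadjusted p below 0.05, and DESeq2 called 70 genes higher (0.517%) and 148 lower (1.09%) at an adjusted p below 0.05. In 718 genes every Igkv3-4-led tumor lay above every Igkv5-39-led tumor (5.31%), and in 660 below (4.88%). The calls below are therefore counted at the unadjusted threshold as a description, and none of the genes passed the adjusted edgeR test. The labels give the tumors as separate samples but not the animals behind them, so that p-values measure the spread between these samples.

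Among the constant genes, 3 of the 9 measured had an unadjusted p below 0.05, all with lower values in Igkv3-4-led tumors, against 5.31% of all genes. The count was 1 with genotype as a covariate or without Bcl6 tumor 2, Smc3/Bcl6 tumor 1 or Smc3/Bcl6 tumor 3. DESeq2 called 1 of the 9 at an adjusted p below 0.05. Ighe, the constant gene of IgE, had 18.6, 29.6 and 41.3 CPM (counts scaled to library size by edgeR's TMM factors) in the Igkv3-4-led and 41.8, 87.9, 171 and 171 CPM in the Igkv5-39-led tumors. The groups did not overlap, but the gap between the highest Igkv3-4-led tumor and Bcl6 tumor 3 was under 1 CPM, and the log2 fold change was -1.98 (SE 0.54, edgeR adjusted p = 0.493). Ighg2b had 78.8, 96.9 and 58.2 CPM against 212, 507, 60.2 and 245, and Smc3/Bcl6 tumor 5 lay among the Igkv3-4-led tumors. Ighg2c had 269, 211 and 119 CPM against 216, 554, 515 and 339, with overlap through Bcl6 tumors 1 and 3. Igha varied most within the groups, with 228, 214 and 9.69 CPM against 870.2, 1882, 27.6 and 134. Ighm had 11741 ± 8308 CPM in Igkv3-4-led and 15087 ± 7538 CPM in Igkv5-39-led tumors (SD, n = 3 and 4, as below), Ighg3 had 165 ± 74.4 CPM in Igkv3-4-led and 103 ± 92.1 CPM in Igkv5-39-led tumors, and Ighg1 had 16.5 ± 16.1 CPM in Igkv3-4-led and 29.1 ± 25.1 CPM in Igkv5-39-led tumors. Igkc had 6806 ± 3406 CPM in Igkv3-4-led and 5408 ± 1752 CPM in Igkv5-39-led tumors, and Iglc2 had 902 ± 359 CPM in Igkv3-4-led and 1119 ± 364 CPM in Igkv5-39-led tumors, so that the light chain constant genes also overlapped.

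The genes higher in Igkv3-4-led tumors with the smallest p were led by B3gnt8, Cd55, Cdk5rap1 and Fcer2a. Their positions are those of GRCm38. Fcer2a (ENSMUSG00000005540.9; chromosome 8, 3681737 to 3694175) encodes CD23, the low-affinity IgE receptor of mature follicular B cells. Its level was 162, 86.2 and 142 CPM in the Igkv3-4-led and 20.98, 14.4, 5.98 and 24.4 CPM in the Igkv5-39-led tumors, a log2 fold change of 2.99 (SE 0.47, edgeR adjusted p = 0.483, DESeq2 adjusted p = 5.85e-07). Cd55 (ENSMUSG00000026399.7; chromosome 1, 130439027 to 130462744), which shields cells from complement, had 127, 135 and 158 CPM against 37.3, 19.2, 20.99 and 42.5 CPM (log2 fold change 2.23, SE 0.30, edgeR adjusted p = 0.483). In both genes the lowest Igkv3-4-led tumor exceeded the highest Igkv5-39-led tumor by a wide margin, and the Igkv5-39-led tumor with the most was Smc3/Bcl6 tumor 6.

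S1pr1 and Klf2 were also among the 12 genes with higher values. S1pr1 (ENSMUSG00000045092.7; chromosome 3, 115710433 to 115715072) is the sphingosine-1-phosphate receptor with which lymphocytes leave lymph nodes, and Klf2 (ENSMUSG00000055148.7; chromosome 8, 72319033 to 72321656) is a transcription factor known to activate it. S1pr1 had 162, 226 and 225 CPM against 118, 81.8, 80.5 and 77.4 CPM, with a log2 fold change of 1.19 (SE 0.20). Klf2 had 184, 174 and 168 CPM against 79.6, 48.5, 90.5 and 53.2 CPM, with a log2 fold change of 1.37 (SE 0.23). In S1pr1, Bcl6 tumor 3 was the highest of the Igkv5-39-led tumors and stood apart from the other 3.

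The rest of the 12 genes were of lower level. B3gnt8 (ENSMUSG00000059479.6; chromosome 7, 25626654 to 25635100), an enzyme that extends sugar chains on glycoproteins, had 23.6, 17.4 and 25.2 CPM against 6.86, 4.23, 4.30 and 6.37 CPM. Cdk5rap1, which modifies mitochondrial transfer RNAs, had 30.5, 26.6 and 21.6 against 11.7, 12.6, 12.2 and 11.97 CPM, and its Igkv5-39-led tumors lay within 1 CPM of each other. Hap1, a partner of huntingtin in vesicle transport, had 23.5, 21.1 and 18.5 against 6.55, 8.11, 9.53 and 5.39 CPM. The fatty acid elongase Elovl6 had 17.0 ± 6.21 CPM in Igkv3-4-led and 4.73 ± 1.44 CPM in Igkv5-39-led tumors, Rab3ip, an activator of a vesicle GTPase, 28.0 ± 2.89 CPM in Igkv3-4-led and 15.1 ± 1.71 CPM in Igkv5-39-led tumors, and Nab2, a corepressor of Egr factors, 28.1 ± 4.58 CPM in Igkv3-4-led and 14.4 ± 1.74 CPM in Igkv5-39-led tumors. Fbxw13, of a gene family of similar F-box members among which reads could be split, had 4.79 ± 1.01 CPM in Igkv3-4-led and 0.683 ± 0.369 CPM in Igkv5-39-led tumors, and Crisp3, a cysteine-rich secretory protein, 3.10 ± 1.86 CPM in Igkv3-4-led and 0.287 ± 0.135 CPM in Igkv5-39-led tumors; both were below 1.2 CPM in each Igkv5-39-led tumor. The log2 fold changes of these 8 genes ran from 0.89 for Rab3ip to 3.37 for Crisp3, with SEs of 0.16 and 0.64.

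Ubash3b had the smallest p of all genes. Ubash3b (ENSMUSG00000032020.10; chromosome 9, 41011098 to 41161697) encodes a phosphatase that dampens antigen receptor signaling. It had 86.8, 78.7 and 84.1 CPM in the Igkv3-4-led tumors against 164, 161, 210.3 and 176 CPM in the Igkv5-39-led tumors, a log2 fold change of -1.09 (SE 0.14, edgeR adjusted p = 0.483, DESeq2 adjusted p = 2.00e-09). The values of each group lay close together, and the groups were well apart.

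Surface and receptor genes were also among the 12 with lower values. Il6ra (ENSMUSG00000027947.7; chromosome 3, 89864059 to 89913196), the interleukin 6 receptor, had 42.6, 34.9 and 27.1 CPM against 60.4, 69.0, 84.5 and 70.9 CPM, with a log2 fold change of -1.03 (SE 0.19). App (ENSMUSG00000022892.10; chromosome 16, 84949685 to 85173766), the amyloid precursor protein, had 109.8, 116 and 182 CPM against 314, 342, 271 and 337 CPM, with a log2 fold change of -1.22 (SE 0.21). Clec2g, a C-type lectin from a cluster of related genes, had 2.22, 1.86 and 2.04 against 6.45, 14.3, 6.57 and 8.82 CPM. In App the Igkv3-4-led tumor nearest to the other group was Smc3/Bcl6 tumor 3.

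Among the others, Gfpt1 and Tmed3 had the highest levels beside Wdr7. Gfpt1 (ENSMUSG00000029992.9; chromosome 6, 87042846 to 87092197), the rate-limiting enzyme of the hexosamine pathway, had 83.6, 75.7 and 69.6 CPM against 129, 246, 174 and 192 CPM. Tmed3, a cargo receptor between the ER and the Golgi, had 54.9, 52.5 and 49.1 against 82.6, 103, 83.1 and 78.9 CPM. Wdr7, a WD-repeat protein, had 44.7, 56.7 and 65.8 against 93.7, 114, 102 and 101 CPM. The groups were apart in each of these, though by less than 1.5 times between the nearest tumors of Tmed3 and Wdr7. Slc36a4, an amino acid transporter, had 15.3 ± 1.48 CPM in Igkv3-4-led and 47.3 ± 13.4 CPM in Igkv5-39-led tumors, Dpy19l4 11.8 ± 0.184 CPM in Igkv3-4-led and 21.3 ± 0.587 CPM in Igkv5-39-led tumors, and Tmtc3, a protein O-mannosyltransferase, 4.11 ± 1.13 CPM in Igkv3-4-led and 13.1 ± 3.33 CPM in Igkv5-39-led tumors. Etl4 had the widest difference of these 12, with 10.4, 3.54 and 2.48 against 22.9, 66.8, 65.4 and 69.6 CPM and a log2 fold change of -3.38 (SE 0.64), and Bcl6 tumor 3 lay between the Igkv3-4-led and the other Igkv5-39-led tumors.

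**Figure D2:**
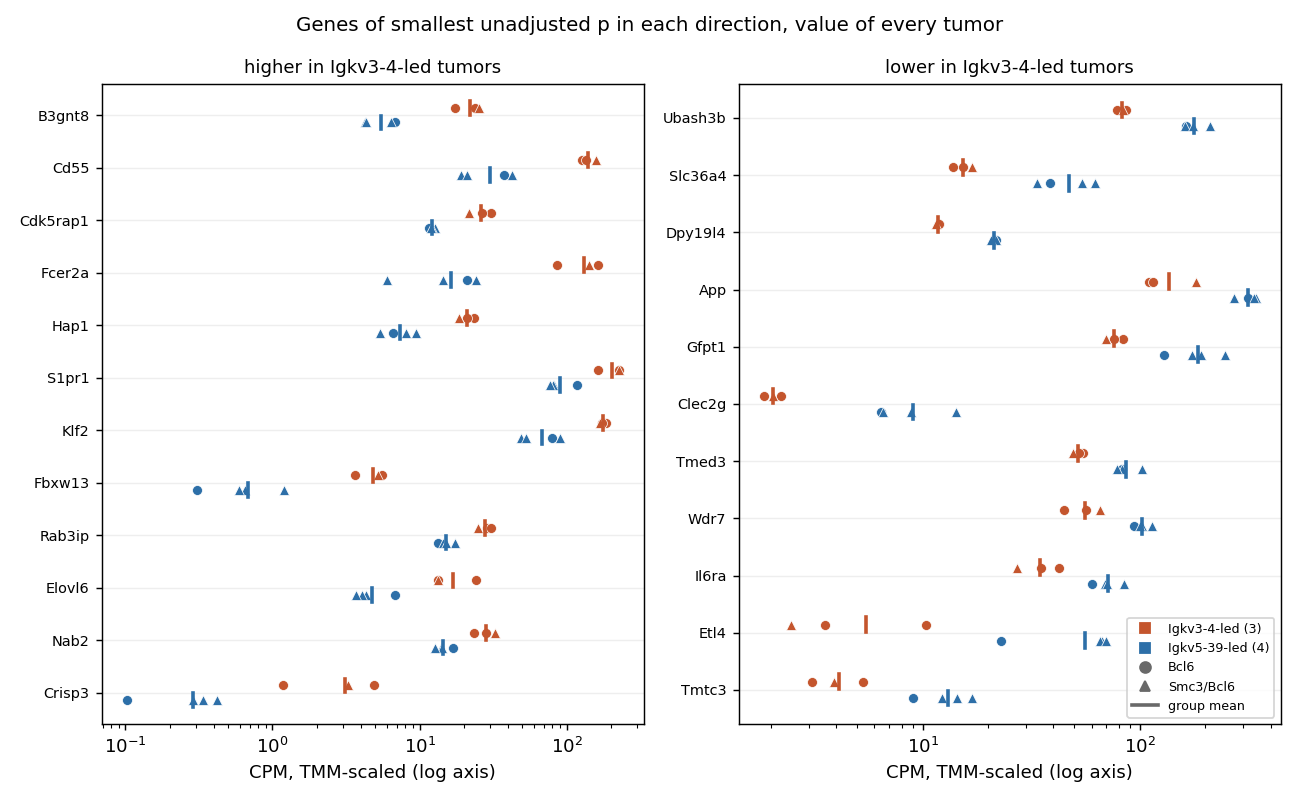
Level of the 12 genes higher (left) and 11 of the 12 lower (right) in Igkv3-4-led tumors with the smallest unadjusted p among those whose groups did not overlap, in TMM-scaled CPM on a log axis, 1 point per tumor and a bar for the mean of 3 or 4 tumors. The groups are apart in each of the 23 genes shown because the genes were chosen for that, and none of them passed the edgeR test at an adjusted p below 0.05, while DESeq2 gave adjusted p from 2.00e-09 to 0.00515.

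Values of the 24 genes under other settings are a description, since genes chosen for a small p and for groups that do not overlap largely keep both. Without Smc3/Bcl6 tumor 6 their log2 fold changes were 0.894 to 1.15 times those with it, and with genotype, which was unequal between the groups, as a covariate 0.870 to 1.14 times those without it. Over all genes, the same covariate took the number at an unadjusted p below 0.05 from 500 to 234 higher and from 718 to 304 lower.

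The kappa difference was also taken within each genotype. Fcer2a differed by 2.49 on the log2 CPM scale within Bcl6 tumors (2 against 1) and by 3.45 within Smc3/Bcl6 tumors (1 against 3). Ubash3b differed by -0.98 and -1.11, and Etl4 by -1.89 and -4.68. The like sign in both genotypes follows from choosing genes without overlap. A test of whether the kappa difference varied with genotype called 0 genes in edgeR (smallest adjusted p = 0.898), with 636 genes (4.70%) at an unadjusted p below 0.05.

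**Figure D3:**
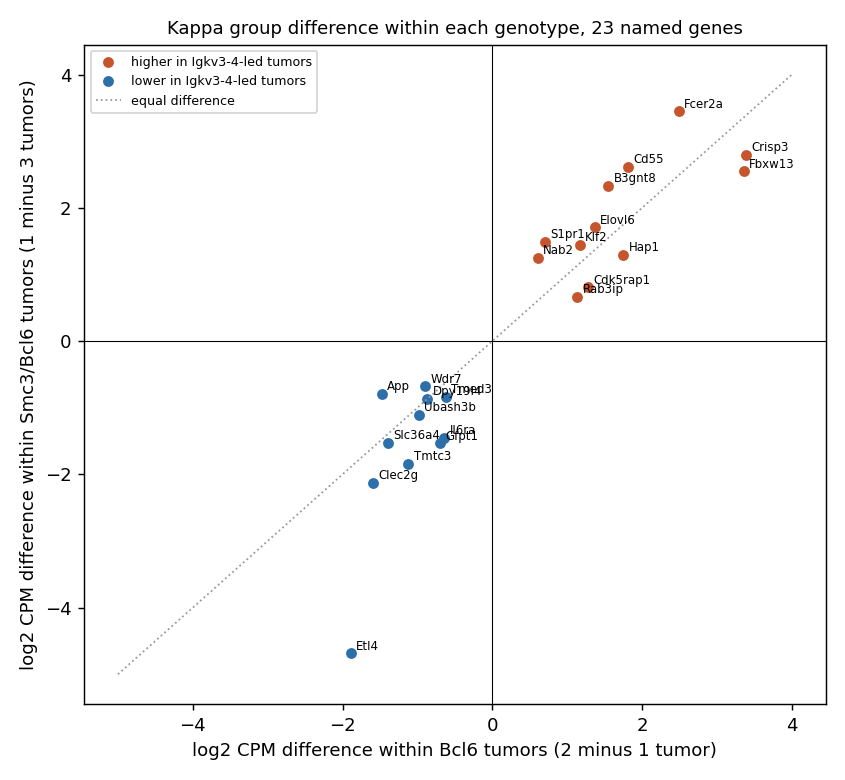
Difference in log2 CPM between Igkv3-4-led and Igkv5-39-led tumors within Bcl6 tumors (horizontal axis, 2 minus 1 tumor) and within Smc3/Bcl6 tumors (vertical axis, 1 minus 3 tumors) for 23 of the 24 genes, 1 point per gene, with a dotted line of equal difference. Etl4 lies farthest from the line, at -1.89 and -4.68.

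Smc3 and Bcl6, the genes altered in these mice, did not differ between the kappa groups by more than their spread. Smc3 had 127, 104 and 111 CPM in the Igkv3-4-led and 95.4, 110.4, 118 and 113 CPM in the Igkv5-39-led tumors (log2 fold change 0.06, SE 0.13, edgeR adjusted p = 0.908). The Smc3 wt/- tumors among them were not lower than the Smc3 wt/wt tumors as a set, so that these counts do not check the genotype labels of the 7 tumors. The study also measured Smc3 by RT-qPCR, which was not analysed here. Bcl6, counted from the transgene and the native gene together, had 651, 297 and 246 against 189.8, 409.5, 216 and 692 CPM (edgeR adjusted p = 0.974).

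Genes of B-cell subsets and of positioning in the germinal center were read from lists, as were the groups that follow. List members named for an unadjusted p below 0.05 were picked after their values were seen. The lists were chosen with earlier results of these data known, so counts set against the share of all genes are a description only. For every list that share was 3.70% higher and 5.31% lower. Of the 15 genes of B1, marginal zone and follicular B cells, 3 had an unadjusted p below 0.05, all higher in Igkv3-4-led tumors, namely Fcer2a, Cd55 and Cd1d1, against 3.70% of all genes. Fcer2a and Cd55 were also among the genes chosen above for their small p. The list's median log2 fold change was 0.59, against 0.00 over all genes tested. This median was 0.34 without Smc3/Bcl6 tumor 3, 0.38 without Bcl6 tumor 2 and 0.27 with the mean level of T-cell markers as a covariate. Cd1d1, which presents lipids and is high on marginal zone B cells, had 43.9, 33.9 and 46.4 CPM against 27.5, 10.9, 18.6 and 23.3 CPM. Cr2, the complement receptor that is also high on marginal zone cells, had 168, 68.7 and 142 against 9.21, 51.0, 1.94 and 74.2 CPM and overlapped between the groups through Smc3/Bcl6 tumor 6. S1pr3, another marginal zone gene, had 39.2, 13.2 and 11.5 against 6.04, 83.6, 24.3 and 66.4 CPM, on the other side from Cd1d1 and Cr2. The highest in level were Ptpn22, with 297 ± 153 CPM in Igkv3-4-led and 384 ± 68.1 CPM in Igkv5-39-led tumors, and Cd9, with 129 ± 47.3 CPM in Igkv3-4-led and 193 ± 59.4 CPM in Igkv5-39-led tumors.

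Of 15 germinal center positioning receptors and their signaling genes, S1pr1 alone had an unadjusted p below 0.05, with a list median of 0.10. Cd83, a light zone marker, had 537 ± 191 CPM in Igkv3-4-led and 478 ± 206 CPM in Igkv5-39-led tumors, and Arhgef1, which relays signals of confinement receptors, had 701 ± 74.8 CPM in Igkv3-4-led and 552 ± 73.9 CPM in Igkv5-39-led tumors. The germinal center B-cell markers had 0 of 10 at that threshold. S1pr2, which confines B cells to the germinal center, had 77.0, 75.6 and 34.4 against 75.5, 155, 28.3 and 29.0 CPM. Of 11 hypermutation and class switch genes 0 had such a p, and the mismatch repair gene Msh6 had 138 ± 38.3 CPM in Igkv3-4-led and 111 ± 6.01 CPM in Igkv5-39-led tumors.

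Few B-cell identity and receptor signaling genes were below the unadjusted threshold. The 11 B-cell markers had 0 genes at an unadjusted p below 0.05, but 2 without Smc3/Bcl6 tumor 6 and 3 with the T-cell covariate, all higher in Igkv3-4-led tumors, and their summed level was 5415 to 10183 CPM in Igkv3-4-led and 3327 to 7949 CPM in Igkv5-39-led tumors, so that all 7 libraries held ample B-cell transcripts. Ms4a1, the CD20 antigen, had 1879, 880.0 and 992 against 299, 1050.2, 1817 and 1200.3 CPM, and Cd79b, a receptor signaling chain, had 1629.8, 968 and 929 against 858, 1897, 903 and 1438 CPM. Of 23 genes of the receptor complex and proximal signaling, 2 had an unadjusted p below 0.05, both lower in Igkv3-4-led tumors, near the 5.31% of all genes, and none was lower at that threshold without Bcl6 tumor 2, Smc3/Bcl6 tumor 1 or Smc3/Bcl6 tumor 3. Pik3ap1, an adaptor of PI3 kinase, had 242, 234 and 265 CPM against 327, 465, 267 and 494 CPM, and the inhibitory receptor Fcgr2b had 436, 371 and 268 against 486, 694, 460.0 and 575 CPM. The phosphatase Ptpn6 had 1192 ± 286 CPM in Igkv3-4-led and 1178 ± 214 CPM in Igkv5-39-led tumors. Of 7 Rag and surrogate light chain genes only Dntt and Vpreb3 passed the filter on low counts, and Vpreb3 had 24.7 ± 12.1 CPM in Igkv3-4-led and 12.5 ± 6.38 CPM in Igkv5-39-led tumors and Dntt 1.21 ± 0.858 CPM in Igkv3-4-led and 2.09 ± 3.04 CPM in Igkv5-39-led tumors.

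Plasma cell and secretory genes had mostly lower values in Igkv3-4-led tumors. Of 8 plasma cell markers tested 7 had a negative log2 fold change (median -0.66), and Mzb1 alone had an unadjusted p below 0.05, with 458, 556 and 208 CPM against 428, 1209, 931 and 995 CPM and overlap through Bcl6 tumor 3. No plasma cell marker had such a p with genotype or the T-cell level as a covariate, or without Smc3/Bcl6 tumor 1 or 3, and the median was -0.44 without Smc3/Bcl6 tumor 1. Xbp1, the transcription factor of secretory differentiation, had 438 ± 148 CPM in Igkv3-4-led and 593 ± 135 CPM in Igkv5-39-led tumors. All 14 ER folding and secretion genes had a negative log2 fold change (median -0.26), and none of the 14 an unadjusted p below 0.05. Without Smc3/Bcl6 tumor 1, 6 of the 14 were positive and the median was -0.09, and without Smc3/Bcl6 tumor 3 it was -0.16. Hspa5, the main ER chaperone, had 2000.2, 1926 and 1329 against 1831, 2838, 1312 and 1787 CPM, and Hsp90b1 had 1524, 1034 and 939 against 1523, 2087, 1264 and 1197 CPM.

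**Figure D4:**
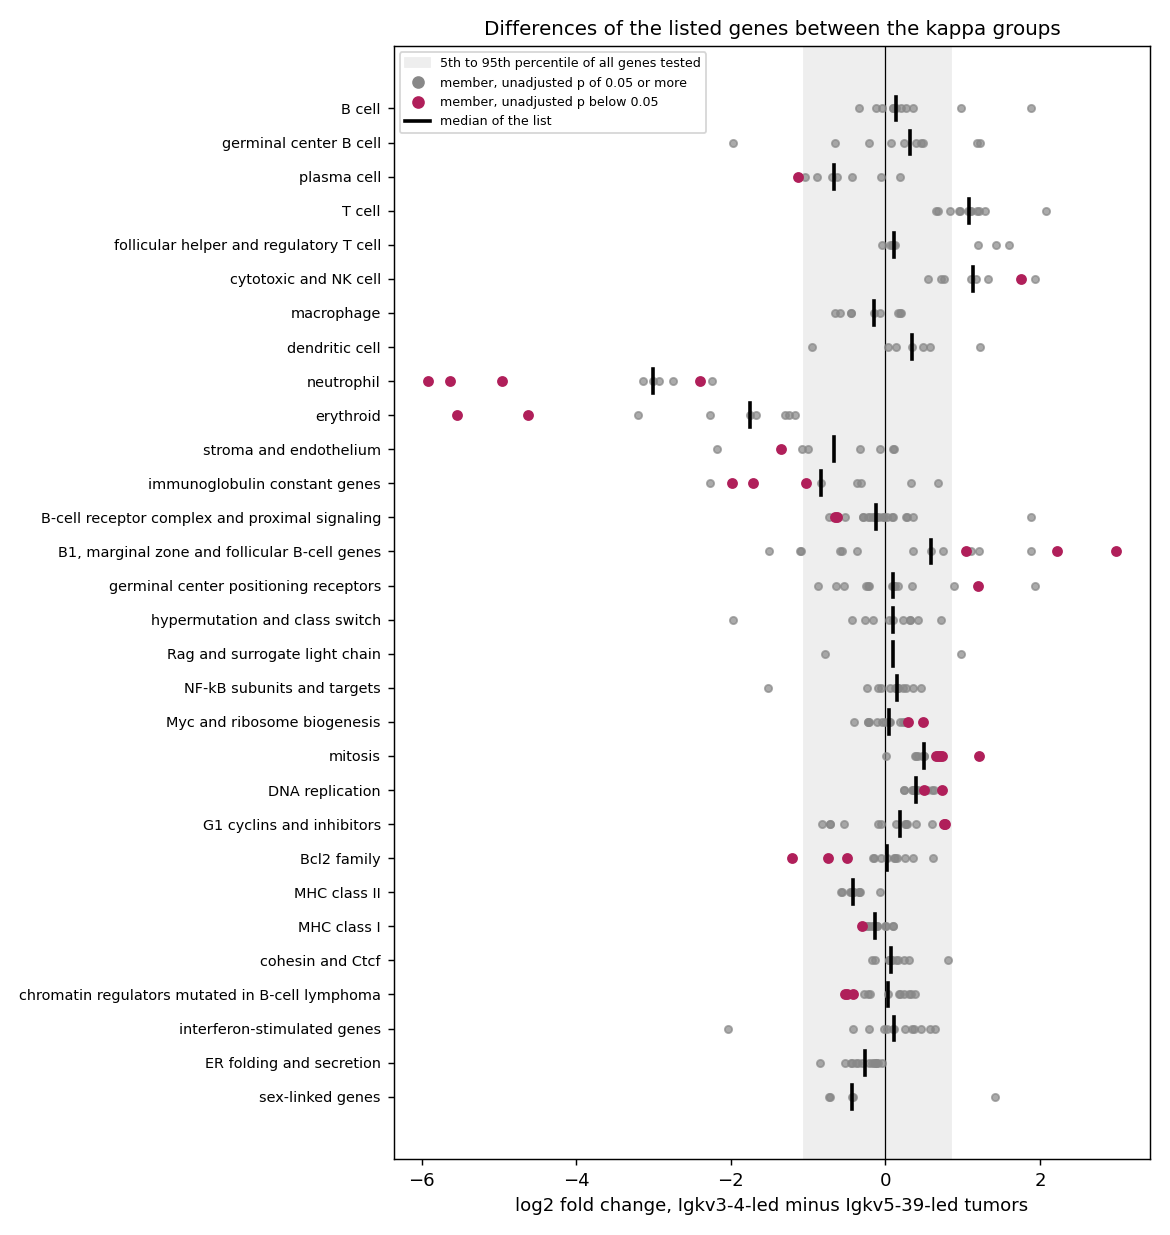
Log2 fold change (Igkv3-4-led minus Igkv5-39-led tumors) of each tested member of the 30 gene lists, 1 point per gene, with members of an unadjusted p below 0.05 in red, the list median as a bar and the range from the 5th to the 95th percentile of all genes tested in grey (-1.06 to 0.84). Mitosis and DNA replication genes lie right of 0, neutrophil and erythroid markers lie left of it, and over the 327 distinct members 16 higher and 20 lower genes had an unadjusted p below 0.05, which is 11% against 9% of all genes tested.

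Cell cycle genes had mostly higher values in Igkv3-4-led tumors, with the highest in Bcl6 tumor 1. All 13 mitosis genes had a positive log2 fold change (median 0.50), or 12 with edgeR's RLE scaling in place of TMM, and against 3.70% of all genes 5 had an unadjusted p below 0.05, namely Ccnb2, Plk1, Aurka, Aurkb and Bub1. Bub1, a spindle checkpoint kinase, had 98.4, 45.7 and 49.3 CPM against 26.6, 35.7, 27.1 and 21.5 CPM (log2 fold change 1.22, SE 0.31, edgeR adjusted p = 0.493). Aurka, a spindle pole kinase, had 94.4, 55.4 and 55.7 against 44.7, 45.8, 40.9 and 32.8 CPM. In both genes Bcl6 tumor 1 was the highest, and without it 2 mitosis genes had an unadjusted p below 0.05, 10 were positive and the median was 0.21. With genotype as a covariate, 1 mitosis gene had such a p and the median was 0.32. In the Smc3/Bcl6 tumors alone, where the Igkv3-4-led group is 1 tumor, 12 of the 13 were positive with a median of 0.11. The proliferation antigen Mki67 had 360.2, 252 and 168 against 245, 288, 333 and 173 CPM, and Top2a had 447, 269 and 226 against 268, 254, 217 and 155 CPM.

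All 13 DNA replication genes were positive too (median 0.39), with 2 at an unadjusted p below 0.05 (Pcna and Cdc6), against 3.70% of all genes. There were 0 without Bcl6 tumor 1 or Smc3/Bcl6 tumor 5 or with genotype as a covariate. Without Bcl6 tumor 1 the median was 0.21. Pcna, the replication clamp, had 94.1, 74.6 and 71.7 against 70.3, 57.1, 45.3 and 54.9 CPM. Mcm6 and Rrm1, the highest in level, had 572 ± 99.1 CPM in Igkv3-4-led and 442 ± 72.3 CPM in Igkv5-39-led tumors, and 372 ± 128 CPM in Igkv3-4-led and 293 ± 62.4 CPM in Igkv5-39-led tumors. Among 14 G1 cyclins and inhibitors, Ccne1 had 70.9, 41.3 and 57.9 against 38.9, 32.3, 26.1 and 36.0 CPM and the inhibitor Cdkn2c 44.3, 25.1 and 25.4 against 16.4, 16.6, 21.5 and 20.3 CPM. Both had an unadjusted p below 0.05, against 3.70% of all genes for higher values. Of these 2 genes, 1 was left with genotype as a covariate or without Bcl6 tumor 1. Ccnd2, of the D-type cyclins, had 226, 325 and 361 against 357, 327, 597 and 728 CPM, and Cdk4 had 306 ± 99.7 CPM in Igkv3-4-led and 279 ± 66.1 CPM in Igkv5-39-led tumors. Of 16 genes of Myc and ribosome biogenesis, 2 had an unadjusted p below 0.05, both higher in Igkv3-4-led tumors, against 3.70% of all genes. There were 0 with genotype as a covariate or without Bcl6 tumor 1 or 2. The list's median was 0.04. The pair was the ribosome assembly gene Nop56, with 232, 223 and 200.4 against 173, 186, 176 and 179 CPM, and Ldha, which makes lactate, with 1092 ± 88.1 CPM in Igkv3-4-led and 778 ± 185 CPM in Igkv5-39-led tumors. Ncl, the highest of this list beside Ldha, had 777 ± 114 CPM in Igkv3-4-led and 661 ± 59.5 CPM in Igkv5-39-led tumors.

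Of the 13 Bcl2 family genes, 3 had an unadjusted p below 0.05, all lower in Igkv3-4-led tumors, against 5.31% of all genes. In the whole list 7 genes were positive and 6 negative (list median 0.02). The count at that threshold was 1 with genotype as a covariate or without Smc3/Bcl6 tumor 1 or 3. The survival gene Bcl2 had 200.5, 168 and 181 CPM against 257, 340.2, 206 and 234 CPM, and Bmf, which opposes it, had 3.11, 5.46 and 2.97 against 8.39, 7.11, 7.67 and 12.5 CPM. Bbc3, another death-promoting member, had 14.3, 16.3 and 11.7 against 15.1, 24.7, 32.5 and 21.8 CPM and overlapped, and Mcl1 had 456 ± 83.5 CPM in Igkv3-4-led and 422 ± 64.3 CPM in Igkv5-39-led tumors. Genes of opposite role were therefore on the same side.

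Of 13 chromatin regulators mutated in B-cell lymphoma, 3 had an unadjusted p below 0.05, all lower in Igkv3-4-led tumors, against 5.31% of all genes. In the whole list 7 genes were positive and 6 negative. The count at that threshold was 2 with genotype as a covariate and 1 without Smc3/Bcl6 tumor 3. Tet2, which oxidizes methylated DNA, had 51.1, 58.7 and 53.6 CPM against 85.7, 89.7, 67.3 and 68.9 CPM. Kmt2c, a histone methyltransferase, had 111, 117 and 92.4 against 132, 137, 139 and 160.0 CPM, and Ep300, a histone acetyltransferase, had 105, 85.7 and 94.8 against 139.8, 158, 96.9 and 143 CPM. The list's median was 0.03, and its highest members, Smarca4 and Dnmt1, had 223 ± 40.1 CPM in Igkv3-4-led and 219 ± 17.6 CPM in Igkv5-39-led tumors, and 236 ± 65.3 CPM in Igkv3-4-led and 200.4 ± 51.8 CPM in Igkv5-39-led tumors.

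The cohesin, NF-kB, interferon and MHC lists gave 1 gene in all at that threshold. The 13 cohesin and Ctcf genes tested had 0 of them and a median of 0.08, with Smc1a at 226 ± 87.5 CPM in Igkv3-4-led and 182 ± 40.3 CPM in Igkv5-39-led tumors, and Stag2 at 155 ± 30.9 CPM in Igkv3-4-led and 171 ± 11.5 CPM in Igkv5-39-led tumors. The 14 NF-kB genes had 0 and a median of 0.14, with Nfkbia at 337 ± 118 CPM in Igkv3-4-led and 309 ± 96.9 CPM in Igkv5-39-led tumors, and Traf1 at 241 ± 37.4 CPM in Igkv3-4-led and 215 ± 40.3 CPM in Igkv5-39-led tumors. The 13 interferon-stimulated genes had 0 and a median of 0.11, with Irf7 at 132 ± 65.6 CPM in Igkv3-4-led and 96.2 ± 72.4 CPM in Igkv5-39-led tumors. Without Bcl6 tumor 3, 3 of these 13 genes were higher at that threshold and the median was 0.81. All 10 MHC class II genes were negative (median -0.41), and 0 had an unadjusted p below 0.05. This count depended on the setting, with 5 of the 10 lower at that threshold in DESeq2 and also in edgeR without Bcl6 tumor 3. Cd74, the invariant chain, had 17352, 14286 and 14564 against 14853, 24810.0, 19102 and 23216 CPM, and H2-Ab1 had 6678, 6095 and 6063 against 6572, 11210.4, 7969 and 8363 CPM. Of 13 MHC class I genes Nlrc5, the class I transactivator, had such a p, with 348, 304 and 375 against 429, 437, 406 and 422 CPM. B2m had 4827 ± 549 CPM in Igkv3-4-led and 5634 ± 1079.9 CPM in Igkv5-39-led tumors, and H2-D1 had 5640.1 ± 752 CPM in Igkv3-4-led and 6329 ± 324 CPM in Igkv5-39-led tumors.

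Markers of other cells varied widely between tumors of the same kappa group. The summed level of 12 T-cell markers was 321 to 2998 CPM in Igkv3-4-led and 104 to 2461 CPM in Igkv5-39-led tumors. Cd3e, a chain of the T-cell receptor complex, had 21.7, 472 and 405 against 349, 5.31, 151 and 23.9 CPM, and the kinase Lck had 195, 924 and 698 against 555, 59.6, 467 and 159.8 CPM. All 12 had a positive log2 fold change (median 1.08), and none of the 12 had an unadjusted p below 0.05 in edgeR. Leaving out 1 tumor gave medians from 0.68 without Smc3/Bcl6 tumor 1 to 2.34 without Bcl6 tumor 3, with 0.71 without Smc3/Bcl6 tumor 6. Bcl6 tumor 1 and Smc3/Bcl6 tumors 1 and 6 were low in T-cell markers, and the first principal component of the 500 most variable genes (65.7% of their variance) parted these 3 from the other 4 tumors. In bulk tumors, fewer cells of a type and less RNA per cell cannot be told apart. With the mean T-cell marker level as a covariate, edgeR still called 0 genes, 590 were higher and 794 lower at an unadjusted p below 0.05, and the log2 fold changes of the 24 genes, chosen for their separation, were 0.834 to 1.11 times those without it.

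Cytotoxic and NK cell markers summed to 167 to 3931 CPM in Igkv3-4-led and 90.8 to 3791 CPM in Igkv5-39-led tumors. Ccl5 had 65.4, 2293 and 1545 against 1819.5, 52.4, 507 and 39.7 CPM, and Nkg7 50.2, 1023 and 973 against 955, 13.4, 221 and 24.8 CPM. Of the 8, Ncr1, an NK cell receptor, had an unadjusted p below 0.05, with 5.505, 10.01 and 13.5 against 3.89, 0.718, 1.69 and 5.18 CPM. The 8 markers of follicular helper and regulatory T cells had 0, with Cxcr5 at 203 ± 10.2 CPM in Igkv3-4-led and 191 ± 81.5 CPM in Igkv5-39-led tumors, and Pdcd1 at 157 ± 69.1 CPM in Igkv3-4-led and 144 ± 34.7 CPM in Igkv5-39-led tumors. Macrophage markers summed to 525 to 9372 CPM in Igkv3-4-led and 302 to 8860.2 CPM in Igkv5-39-led tumors, with Lyz2 at 113, 2603 and 6111 against 5872, 121, 6295 and 101 CPM and C1qb at 63.8, 371 and 921 against 809.7, 34.5, 494 and 283 CPM, and 0 of 9 had such a p. Dendritic cell markers also had 0 of 7, with Itgax at 60.3 ± 50.9 CPM in Igkv3-4-led and 55.1 ± 44.5 CPM in Igkv5-39-led tumors, and Siglech at 12.9 ± 5.94 CPM in Igkv3-4-led and 24.9 ± 32.7 CPM in Igkv5-39-led tumors.

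Neutrophil markers had 4 of 9 genes at an unadjusted p below 0.05, all lower in Igkv3-4-led tumors (median -3.01), against 5.31% of all genes. Mpo, a granule enzyme, had 1.51, 0.900 and 0.716 CPM against 226, 3.80, 0.421 and 18.5 CPM, and S100a8 had 52.6, 9.39 and 13.1 against 637, 87.5, 6.32 and 71.3 CPM and S100a9 48.3, 4.67 and 9.80 against 499, 74.2, 1.69 and 60.7 CPM. Bcl6 tumor 3 was far above the other 6 in each, and without it 0 of the 8 tested had such a p, with a median of -1.14. None had such a p without Bcl6 tumor 2 or Smc3/Bcl6 tumor 3 either, with medians of -2.58 and -2.61. Of the 9 erythroid markers, 2 had such a p, both lower in Igkv3-4-led tumors, against 5.31% of all genes. Smc3/Bcl6 tumor 6 was the highest in the erythroid markers named here. Slc4a1, the anion exchanger of red cells, had 1.51, 3.09 and 0.330 against 9.82, 7.47, 1.43 and 289 CPM, and Hbb-bs and Hba-a1, whose reads could be split with near-identical globin copies, had 19.4, 811 and 73.4 against 601, 61.1, 269.8 and 2045 CPM and 7.81, 267 and 22.0 against 158, 23.3, 80.8 and 675 CPM. Without that tumor, 0 erythroid genes had an unadjusted p below 0.05 and the median went from -1.75 to -0.02, and there were also 0 without Bcl6 tumor 1 or Smc3/Bcl6 tumor 3. Of 8 stromal and endothelial markers tested, Cdh5 had such a p, with 0.977, 2.08 and 0.606 against 2.35, 2.23, 3.71 and 4.20 CPM, while Pecam1 had 119.7 ± 10.3 CPM in Igkv3-4-led and 110.4 ± 70.0 CPM in Igkv5-39-led tumors, and Cxcl13 had 47.3 ± 43.1 CPM in Igkv3-4-led and 49.7 ± 89.0 CPM in Igkv5-39-led tumors. The part of these cells in the differences between the kappa groups was not tested beyond the T-cell covariate.

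**Figure D5:**
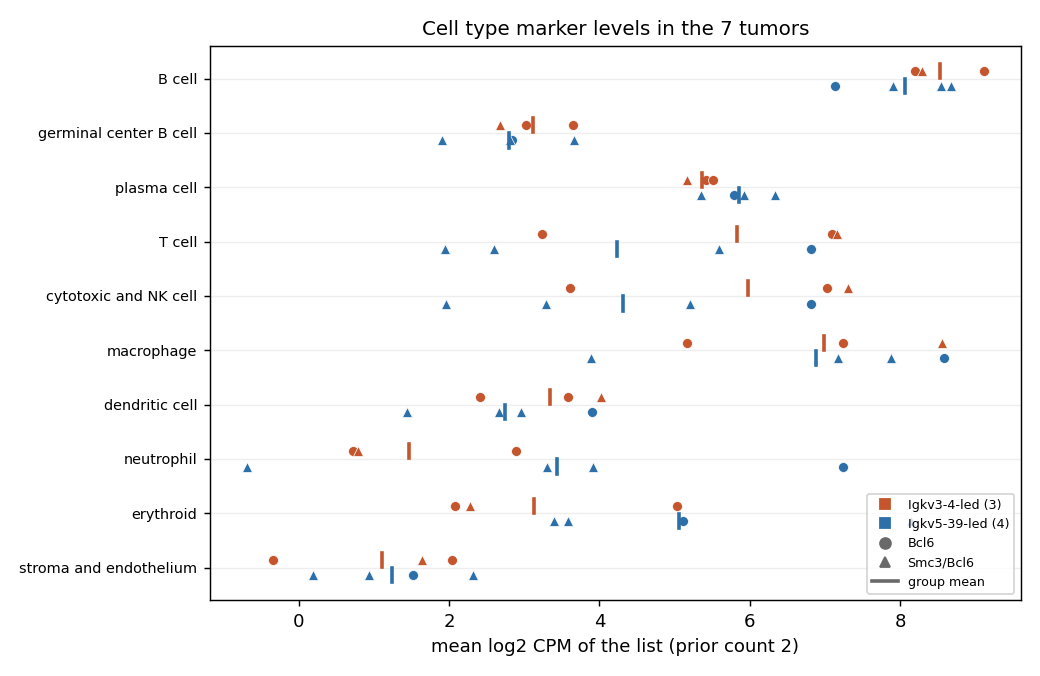
Mean log2 CPM (prior count 2) of 10 cell type marker lists, 1 point per tumor, colored by kappa group, with the group mean as a bar. T-cell, cytotoxic and macrophage markers spread over several log2 units within each kappa group, neutrophil markers are highest in Bcl6 tumor 3 and erythroid markers in Smc3/Bcl6 tumor 6.

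Transcripts of both sexes were present in all 7 libraries. Xist, which silences an X chromosome in females, had 32.4, 115 and 52.1 against 28.2, 27.3, 38.9 and 5.18 CPM, while the Y-linked Ddx3y had 132, 78.4 and 70.9 against 102, 35.3, 249 and 117 CPM and Eif2s3y 107, 69.0 and 64.3 against 80.3, 16.4, 243 and 89.5 CPM. Kdm5d had 25.1 ± 7.07 CPM in Igkv3-4-led and 41.4 ± 29.3 CPM in Igkv5-39-led tumors, and Uty had 33.1 ± 10.9 CPM in Igkv3-4-led and 54.8 ± 29.8 CPM in Igkv5-39-led tumors. The groups overlapped in each of the 5 genes, and the origin of the mixed signal was not tested.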

How the data were processed

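Lymphomas of Bcl6 (3 samples) and Smc3/Bcl6 (6 samples) mice were profiled by RNA-seq (Illumina TruSeq). The authors aligned reads to mm10 with STAR within an nf-core pipeline, counted them per GENCODE gene with featureCounts (strand setting not given in the sources used here), and deposited raw counts without normalization. The submitters' processing notes name R 4.0.2 and DESeq2 1.28.1. Every column matched a sample (0 did not). GENCODE M21 (GRCm38) held 97.9% of the identifiers and supplied coordinates and V segment sequences.

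Each tumor was assigned to the Igkv gene with most counts. The test between groups was that of edgeR 4.0.16 under R 4.3.3 (TMM, filterByExpr by kappa group, quasi-likelihood test without covariates, Benjamini-Hochberg adjustment), leaving out 251 V, D and J rows, which held 0.328 to 1.46% of the counts of a tumor. The genes named are the 12 in each direction with the smallest unadjusted p among those with no overlap in CPM and a name that is not a clone name (none passed the adjusted threshold), the constant, sex-linked and altered genes, and 2 members of highest level per list, of which 3 genes are not reported here. The members, lists and tests were chosen with earlier results of these data known, and the study's own threshold, DESeq2 1.42.0, limma 3.58.1, other filters and normalizations, covariates, a replicate block and leaving out each tumor were tried. A prior count of 2 entered log2 CPM. The fitting scripts were tested on simulated data. Jchain, Adgre1, Ighd, Iglc1, Iglc3 and Wapl matched no name and were not used here. Total counts per tumor were 10156728 to 17774577, and Wilson intervals of shares cover counting error only.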

Additional observations from a re-analysis of the deposited data

Results flagged for a closer look

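In the 4 Igkv5-39-led tumors, 114 measures (V and J gene shares and diversity, list levels and named genes) were searched for 1 tumor at a distance from the other 3. The 6 found are close to the 5.7 that chance alone gives, a rough guide only, since the measures include Igkv shares that set the groups and genes chosen for their separation. Smc3/Bcl6 tumor 6 had 8.36% Igkv3-4 among its Igkv counts, against 0.00971 to 0.142% in the other 3, and 10.8% Ighv1-64 among its Ighv counts, against 0.0374 to 0.115%. The same tumor had a mean log2 CPM of -0.21 over the Rag and surrogate light chain genes, against -1.47 to -1.27. Smc3/Bcl6 tumor 1 was lowest in the NF-kB list, at 6.33 against 6.68 to 6.73 mean log2 CPM. Bcl6 tumor 3 was lowest in Etl4, at 4.53 against 6.03 to 6.12 log2 CPM, and highest in S1pr1, at 6.89 against 6.28 to 6.36 log2 CPM.

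In 4 genes every Igkv3-4-led tumor lay on one side of the Igkv5-39-led tumors within the Bcl6 genotype and on the other side within the Smc3/Bcl6 genotype. Igkc differed by 1.35 log2 CPM within Bcl6 tumors and by -0.72 within Smc3/Bcl6 tumors. Iglc2 differed by 0.43 and -0.96, Ighg1 by 1.24 and -2.37, and Mzb1, a chaperone of IgM assembly, by 0.24 and -2.32. The edgeR interaction test gave an adjusted p of 0.898 for each of these 4 genes. They were among the 70 examined this way, of which the 24 chosen for no overlap could not show the pattern. Each genotype has a kappa group of 1 tumor, so the order of a few values can readily give such a pattern. Its share over all genes was not counted, so the 4 genes are a description only.

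Counts of the 2 leading kappa genes were also present in the tumors left out. Igkv3-4 had 25 counts (0.0216% of Igkv counts) in Smc3/Bcl6 tumor 2 and 933 (0.751%) in Smc3/Bcl6 tumor 4. Igkv5-39 had 2328 counts (2.01%) and 1651 counts (1.33%) in these tumors. A count of 0 would allow up to 3 counts, for counting error only.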

How the results depend on the processing

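The count of 0 genes at an adjusted p below 0.05 held in each direction under every edgeR and limma alternative run without V segments. DESeq2 gave 70 higher and 148 lower, including all 24 genes chosen by the rule, and the study's own threshold (unadjusted p below 0.1, absolute log2 fold change above 0.56) gave 406 and 808. Among the lists, the DESeq2 calls were 2 genes of B1, marginal zone and follicular B cells. The constant, germinal center positioning, mitosis and neutrophil lists had 1 each, and the other lists had 0. With V, D and J segments kept, edgeR called 1 gene lower, Igkv5-39, which the rule used. At an unadjusted p below 0.05, against 500 higher and 718 lower, the counts were 234 and 304 with genotype as a covariate, and 111 and 339 with all 9 tumors in the fit. The Smc3/Bcl6 tumors alone gave 401 lower, and the causes of these shifts were not tested. Leaving out 1 tumor gave 325 to 593 higher and 407 to 823 lower, lowest without Bcl6 tumor 2, and 469 lower without Smc3/Bcl6 tumor 3. For the adjusted counts, leaving out 1 tumor gave 0 in each case. The interaction count was also 0 without each tumor other than Bcl6 tumor 3 and Smc3/Bcl6 tumor 3. Without either of these, 1 genotype lacked a kappa group and the interaction could not be fitted. Of 1523 single-gene values under the alternatives, 25 had the other sign, all in genes that were not among the 24, whose signs their choice largely fixed.

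Replicate numbers 1 and 3 occurred in both kappa groups. The 2 tumors numbered 1 correlated in their deviations from the mean of their kappa group over these 4 tumors (0.723). The pair numbered 3 must give the same value, since each mean is of 2 tumors, so this does not show that the numbers pair the tumors. The tumors numbered 1 were also the 2 labeled mesenteric lymph node and were low in T-cell markers. Replicate number and tissue label therefore cannot be told apart in these 4 tumors. A replicate block over these 4 tumors, with 1 residual degree of freedom, was fitted to 13216 genes. At an unadjusted p below 0.05 in edgeR it gave 770 genes higher and 999 lower. The same 4 tumors without the block gave 279 higher and 358 lower at that threshold. At an adjusted p below 0.05 both fits gave 0 in each direction. Leading kappa genes were the same in all 9 tumors when counts were divided by exon length, which 2 of 105 Igkv rows lacked. With 3 against 4 tumors, fold changes had a median SE of 0.27 on the log2 scale, and no difference of any size passed the adjusted edgeR test.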
